A study of Mus musculus with 4 samples.

Results

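A set of 7 genes with roles in the selection or early development of invariant natural killer T (iNKT) cells was examined. The data were lists of accessible chromatin from double-positive (DP) thymocytes. The genes were taken by name: Cd1d1, the SLAM family receptor genes Slamf1, Slamf6 and Ly9, Sh2d1a, Fyn and Zbtb16. These are 7 of 21887 protein-coding genes in the RefSeq table used. With 50 kb on each side of each gene, they held 15 of the 15215 regions called in wild-type (WT) cells and 7 of the 7645 called in knockout (KO) cells. The assay was ATAC-seq: a transposase inserts adapters wherever DNA is open, and the sequenced ends mark accessible chromatin. The WT mice were C57BL/6 with both Chaf1b alleles flanked by loxP sites and no Cre. The KO mice carried the same alleles with a Cd4-cre transgene, so both groups share the floxed alleles and only KO carries Cre. Cd4-cre acts in cells that have switched on Cd4, DP thymocytes among them. Chaf1b encodes a subunit of chromatin assembly factor 1, a histone chaperone that works at replication forks, and the study's title concerns its part in early iNKT development. Each group had 2 samples of 50000 sorted CD4+CD8+ cells. The 2 samples were pooled into 1 peak list per group before deposit, so no value per animal was at hand and no difference below has a replicate check. Age and sex of the mice are not given in the sources used here.

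iNKT cells are T cells with a nearly invariant receptor that reads lipids on CD1d, an MHC-like molecule. They are selected in the thymus by other DP thymocytes, which display CD1d, rather than by epithelium. The selecting and the selected cell also bind each other through SLAM receptors, which signal in the thymocyte through the adaptor SAP (Sh2d1a) to the kinase FYN. Cells that pass selection then switch on PLZF (Zbtb16), the transcription factor that gives them their innate-like character.

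Among the members with a matched promoter sequence, Fyn differed from Slamf1 and Slamf6. Sh2d1a and Ly9, which also had a region at a gene end, had no matched promoter. RefSeq promoters (GRCm38.p6, 250 bases before to 50 after the start, read 5′ to 3′ on the plus strand) were matched for 3 of the 7 members. Those of Fyn (chr10:39369549-39369848), Slamf1 (chr1:171766882-171767181) and Slamf6 (chr1:171917212-171917511) are given with each CG dinucleotide in capitals. Of these 3, only Fyn has a region over its start, and it is also the one rich in CG.
Fyn: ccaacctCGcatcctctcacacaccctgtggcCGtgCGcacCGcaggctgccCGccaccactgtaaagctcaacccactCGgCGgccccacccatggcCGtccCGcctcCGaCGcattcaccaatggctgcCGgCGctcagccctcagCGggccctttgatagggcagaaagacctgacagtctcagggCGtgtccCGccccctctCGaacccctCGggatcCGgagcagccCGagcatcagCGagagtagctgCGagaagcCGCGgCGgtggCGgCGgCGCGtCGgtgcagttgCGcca
Slamf1: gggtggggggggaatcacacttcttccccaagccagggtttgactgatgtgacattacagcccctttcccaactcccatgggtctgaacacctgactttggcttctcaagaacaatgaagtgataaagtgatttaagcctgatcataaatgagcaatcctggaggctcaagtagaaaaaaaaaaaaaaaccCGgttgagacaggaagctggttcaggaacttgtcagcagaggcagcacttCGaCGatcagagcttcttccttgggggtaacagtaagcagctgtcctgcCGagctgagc
Slamf6: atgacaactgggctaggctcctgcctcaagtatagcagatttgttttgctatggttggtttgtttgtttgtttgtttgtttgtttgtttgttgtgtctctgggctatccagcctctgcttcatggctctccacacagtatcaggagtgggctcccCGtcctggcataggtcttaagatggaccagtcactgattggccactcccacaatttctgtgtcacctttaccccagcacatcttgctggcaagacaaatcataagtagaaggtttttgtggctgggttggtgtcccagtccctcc

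The Fyn promoter held 31 CG dinucleotides and 69.0% G and C, and a region covered it in both lists. The Slamf1 promoter held 4 CG at 49.0% G and C, and the Slamf6 promoter 1 at 48.3%, and neither overlapped a region in either list. The other SLAM genes with a matched promoter held 2 CG at Cd244a, 3 at Slamf7, 3 at Cd84 and 7 at Cd48, and none of these promoters overlapped a region. Over all 32851 promoters of the table, 22.6% overlapped a WT region and 13.6% a KO region. The median CG number was 23 in promoters with a WT region and 5 in those without. Fyn thus lay above the first median, and Slamf1 and Slamf6 below the second.

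Short motifs were searched on both strands of these promoters. The Fyn promoter held 1 GC box (GGGCGG, present in 35.7% of all promoters), 1 NF-Y motif (CCAAT, 37.4%), 1 TCF and LEF motif (CTTTGA, 16.0%) and 1 E-box (CANNTG, 72.3%). It also held 4 matches, of which 2 overlap each other and the GC box, to an NF-kB pattern of GGG, any 5 bases and CC, which 50.8% of promoters hold. Slamf1 held 2 E-boxes, of which 1 was also the E2A and HEB form (CAGCTG, 16.3%). Slamf6 held 1 E-box, 1 NF-Y motif and 1 match to the NF-kB pattern, which overlaps the NF-Y motif. The 3 promoters held no match to ETS (CCGGAAGT, 3.89%), RUNX (TGTGGT, 16.8%), AP-1 (TGANTCA, 7.81%) or EGR (GCGTGGGCG, 0.612%) letters. A match describes letters in this window and not a bound site.

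Each region is given below with the fold enrichment that the authors deposited for its summit, over the local background. Reads at the summit were worked out from the deposited fold and p. They count the reads, extended as the peak caller was set, that cover the summit; the extension length is not given in the sources used here. Their exact Poisson 95% intervals cover counting error only, not the spread between mice. Relative to WT, the depth of the KO list, taken from the most frequent local background of each, was 0.752, so a site with equal signal would show 0.752 KO reads for each WT read. A region was called kept when a KO region overlapped it by at least 1 bp. A missing region means that no call was made, not that the site was closed. In pooled cells, fewer cells open at a site and less opening per cell cannot be told apart.

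Of the members' 15 WT regions, 6 were kept in KO (40.0%, exact Clopper-Pearson 95% interval 16.3 to 67.7), against 46.2% of all WT regions. The interval holds the share of all regions, so no difference from the whole list was detectable with 15 regions. It takes the regions as independent, though several are neighbours, so the shares are a description and not a test. At the ends of the genes or inside them 4 of 9 were kept, and in the flanks 2 of 6. The members' regions were mostly weak, with 11 of 15 in the lower 5 deciles of WT fold enrichment, where 3 were kept. In the upper 5 deciles 3 of 4 were kept. Had each region been kept as often as all WT regions of its decile, 5.89 would have been kept. Conversely, 6 of the 7 KO regions had a WT counterpart and 1 had none, where 7.39% of all KO regions had no WT region.

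**Figure D1:**
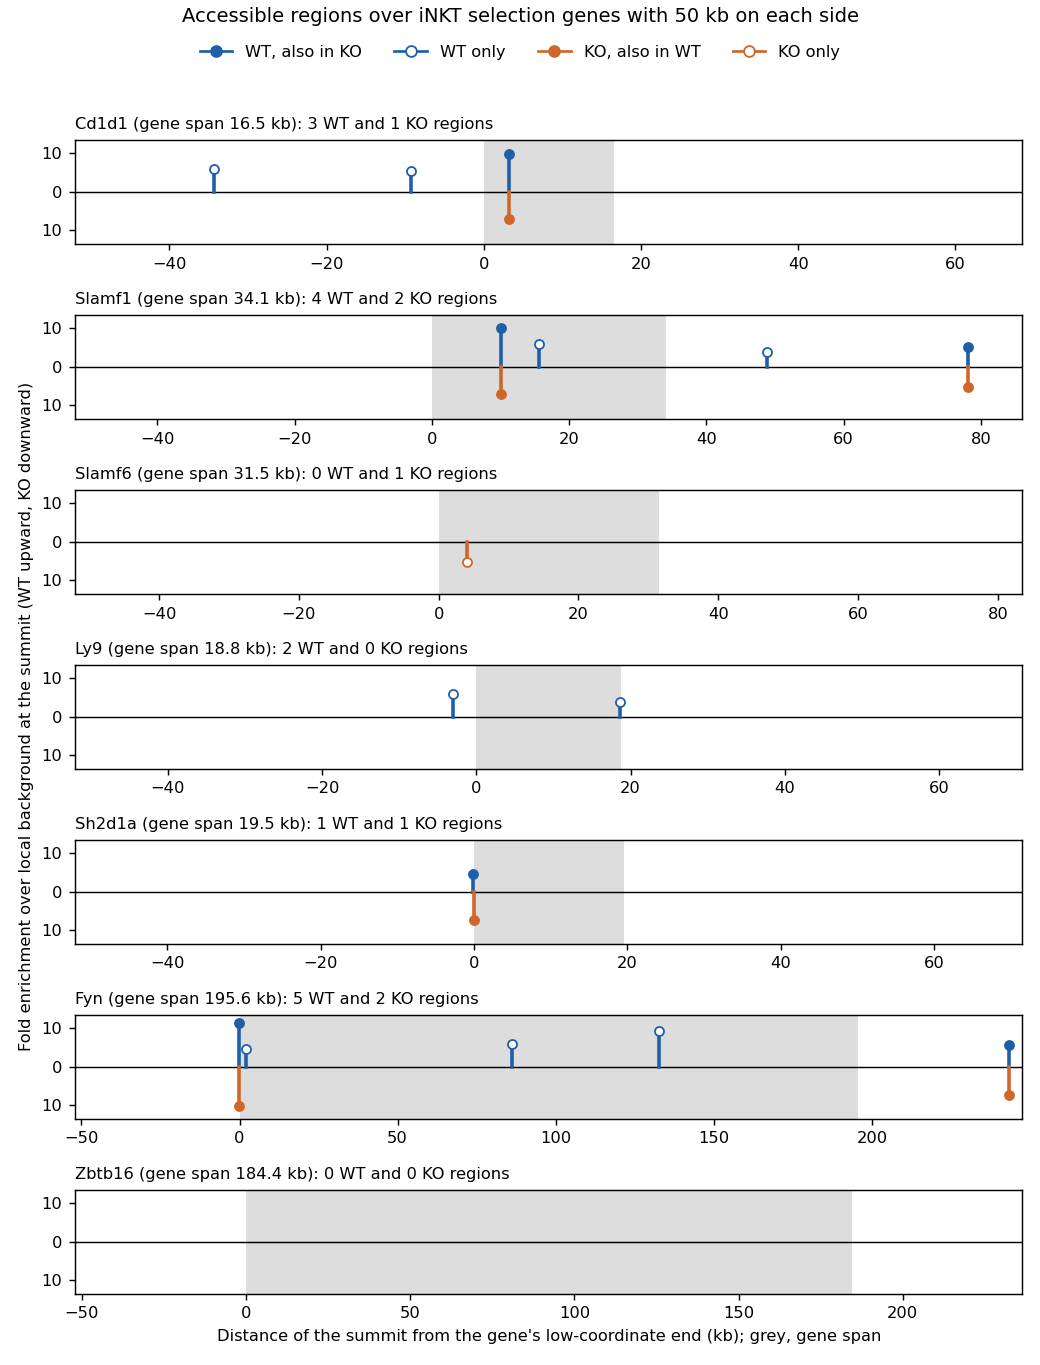
Regions over each gene, with the distance of the summit from the gene's low-coordinate end in kb on the horizontal axis and the authors' fold enrichment on the vertical axis, WT upward and KO downward. Filled points are in both lists and open points in 1 list; Fyn had the most regions (5 in WT, 2 in KO) and Zbtb16 had none.

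Cd1d1 encodes the CD1d heavy chain. The gene (chromosome 3, 86995834 to 87012358) held a broad region inside its span in both lists (WT 86998725 to 86999545, KO 86998926 to 86999487). The region was 821 bp wide in WT and 562 bp in KO, where the median region had 307 and 279 bp, and the whole KO region lay inside the WT region. The summit stood 9.88-fold over its background in WT and 7.09-fold in KO. The summits, 38 bp apart, held 32 WT reads (21.9 to 45.2) and 17 KO reads (9.90 to 27.2), against 24.1 KO reads at equal signal. KO reads per WT read, divided by the depth ratio, came to 0.706 with an interval of 0.368 to 1.31, which includes 1. RefSeq's span joins several transcripts, whose separate starts were not used here, so a region inside the span may lie at a start. Neither list had a region within 1000 bp of either end of the span.

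Both other Cd1d1 regions lay below the gene and were called in WT only. The nearer, at 86986461 to 86986848, lay 8.99 kb from Cd1d1, at the end of its neighbour Cd1d2, with a fold of 5.48 and 12 reads (6.20 to 21.0). Cd1d2 is a close copy of Cd1d1 that RefSeq lists as a transcribed pseudogene, and how the authors treated reads that fit both is not given in the sources used here. The farther, at 86961391 to 86961590, lay 34.2 kb away with a fold of 6.06 and 15 reads (8.40 to 24.7). Such a site is often missing from the KO list: of all WT regions with 12 summit reads 14.1% were kept, and of those with 15 reads 24.8%.

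The SLAM receptors are homophilic or paired surface molecules of lymphocytes, and their genes stand side by side on chromosome 1. From the start of Cd244a to the end of Slamf6 (171558718 to 171948958, 390 kb) there were 7 WT and 3 KO regions, of which 2 were in both lists. Over all WT regions 46.2% were kept. Apart from the strongest, with 29 reads, the WT regions of the cluster held 8 to 13 reads. Of all WT regions with 8 reads 1.14% were kept, and of those with 13 reads 15.4%. The WT folds ran from 3.78 to 10.0 with a median of 5.42, below the median of 6.52 of all WT regions. The 3 KO folds ran from 5.13 to 6.94, with a median over all KO regions of 6.67.

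Slamf1 encodes SLAM (CD150), a receptor that binds itself on the neighbouring cell. The strongest region of the cluster lay inside this gene (171767131 to 171801184), 10.1 kb from its start (WT 171777106 to 171777409, KO 171777134 to 171777345). WT cells had a fold of 10.0 and KO cells 6.94 there, with summits 7 bp apart. They held 29 WT reads (19.4 to 41.6) and 14 KO reads (7.65 to 23.5), against 21.8 KO reads at equal signal. The depth-corrected ratio was 0.642 (0.313 to 1.25), the lowest of the 6 kept member regions, and its interval includes 1. Among the 2745 regions in both lists whose summed reads lay within 20% of this region's, the median ratio was 0.831 and 17.7% had a lower one.

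A weaker Slamf1 region 15.6 kb from the start (171782632 to 171782868, fold 5.90, 13 reads) was called in WT only. The same held for a region 14.5 kb beyond the gene, towards Cd84 (171815646 to 171816049, fold 3.79, 8 reads). The fourth WT region lay 43.95 kb beyond Slamf1, inside Cd84, which encodes another SLAM receptor, at 171845134 to 171845342. It was in both lists at nearly the same fold, 5.15 in WT and 5.31 in KO, with 13 WT reads (6.92 to 22.2) and 11 KO reads (5.49 to 19.7). Its corrected ratio was 1.12 (0.456 to 2.72). Of all WT regions with 13 reads, 15.4% were kept.

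Ly9 encodes the SLAM receptor CD229. Both of its regions were called in WT only, and the KO region nearest to the gene (171588613 to 171607410) lay 170 kb away. The region at the high-coordinate end of the gene, at 171607189 to 171607518, had a fold of 3.78 and 8 reads (3.45 to 15.8). At equal signal 6.02 KO reads would be present, and the fewest reads at any KO summit were 7, so a difference was not detectable there at this depth. Of the 88 WT regions with 8 reads, 1.14% were kept. The other region (171585524 to 171585723, fold 5.90, 13 reads) lay 2.89 kb from Ly9, by the end of Cd244a.

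Slamf6 encodes Ly108, which acts with SLAM in iNKT selection. It had no WT region, and the nearest WT region lay 67.2 kb from the gene (171917458 to 171948958). It held the one member region called in KO only, at 171921436 to 171921635, 4.04 kb from the start. That region was as narrow as any in the list, 200 bp, with a fold of 5.13, at percentile 13.1 of the KO list, and 11 reads (5.49 to 19.7). The WT reads at this site are not in the lists.

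Sh2d1a encodes SAP, the adaptor that couples SLAM receptors to FYN. The gene (chromosome X, 42502565 to 42522097) had 1 region in each list, both over its low-coordinate end (WT 42502375 to 42502580, KO 42502390 to 42502800). The KO region was wider, with 411 against 206 bp, and stronger, with a fold of 7.38 against 4.64. In rank it stood at percentile 64.2 of the KO list and 11.0 of the WT list. Reads at the summits, 105 bp apart, were 10 in WT (4.80 to 18.4) and 14 in KO (7.65 to 23.5), where equal signal would give 7.52 in KO. The corrected ratio of 1.86 was the highest of the 6 kept member regions. Its counting interval, 0.769 to 4.68, includes 1, so the difference was not detectable beyond counting error.

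Local background at Sh2d1a equalled the genome background in both lists, so the fold difference came from the summit reads and the lower KO background that depth gives. Of 911 regions in both lists with summed reads within 20% of those at Sh2d1a, 98.9% had a lower ratio than 1.86, with a median of 1.06. This rank is a description, since the gene was not drawn at random and only sites called in both lists enter it. On chromosome X as a whole, 157 regions with a single counterpart had a median ratio of 0.886, against 0.871 for 6704 on the autosomes. At 20 to 30 summed reads the medians were 1.15 for 39 regions on X and 1.04 for 1258 on the autosomes. The part of sex in the Sh2d1a value was not tested.

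Fyn encodes the Src-family kinase that SAP recruits. Its start (gene at chromosome 10, 39369743 to 39565381) carried the strongest region of the set in both lists (WT 39369462 to 39369893, KO 39369508 to 39369858), over the promoter printed above. WT cells had a fold of 11.5 and KO cells 10.1, at percentiles 93.2 and 89.8 of the lists. The summits, 25 bp apart, held 49 WT reads (36.3 to 64.8) and 32 KO reads (21.9 to 45.2), against 36.9 at equal signal. The corrected ratio was 0.868 (0.538 to 1.38). This is the best counted of the member sites, and no difference was detectable there. All 40 WT regions with 49 reads were kept.

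Inside Fyn there were 3 further WT regions and 0 KO regions. The strongest, 133 kb from the start at 39502304 to 39502637, had a fold of 9.40 and 24 reads (15.4 to 35.7). It is the exception among the WT-only member regions. Of the regions in its fold decile 85.5% were kept, and of the 346 WT regions with 24 reads 66.5% were. Equal signal would give 18.1 KO reads, where 7 pass the p of the weakest KO region at this background. The other WT-only regions were at 39371610 to 39371858, 1.98 kb from the start (fold 4.61, 20 reads), and at 39455903 to 39456211, 86.3 kb from the start (fold 5.88, 13 reads). The first stands next to the start region, where the local background was 2.59 times that of the genome, so its fold is low for its reads. Of the 634 WT regions with 20 reads 48.6% were kept.

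Past the far end of Fyn, 47.8 kb away, a region in both lists lay at an annotated end of Traf3ip2, which encodes an adaptor of interleukin-17 receptors. It ran from 39613152 to 39613517 in WT with a fold of 5.60, and from 39613065 to 39613304 in KO with a fold of 7.38. Summit reads were 14 in WT (7.65 to 23.5) and 14 in KO (7.65 to 23.5), a corrected ratio of 1.33 (0.587 to 3.01). It is the third of the 6 kept regions with the higher fold in KO, after Sh2d1a and the site in Cd84. Over all 6875 regions with 1 counterpart in each list, 25.4% had the higher fold in KO. At 20 to 30 summed reads, which takes in all 3 of these sites, the share was 44.3%.

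Zbtb16 encodes PLZF. The gene (chromosome 9, 48651797 to 48836225) is 184 kb long, and no region of either list lay in it or within 50 kb of it. The nearest WT region and the nearest KO region each lay 149 kb from the gene. An empty window is common: 30.4% of protein-coding genes had no region in either list over the same window, and 28.1% of the genes of 100 kb or more. These lists therefore hold no difference at Zbtb16.

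**Figure D2:**
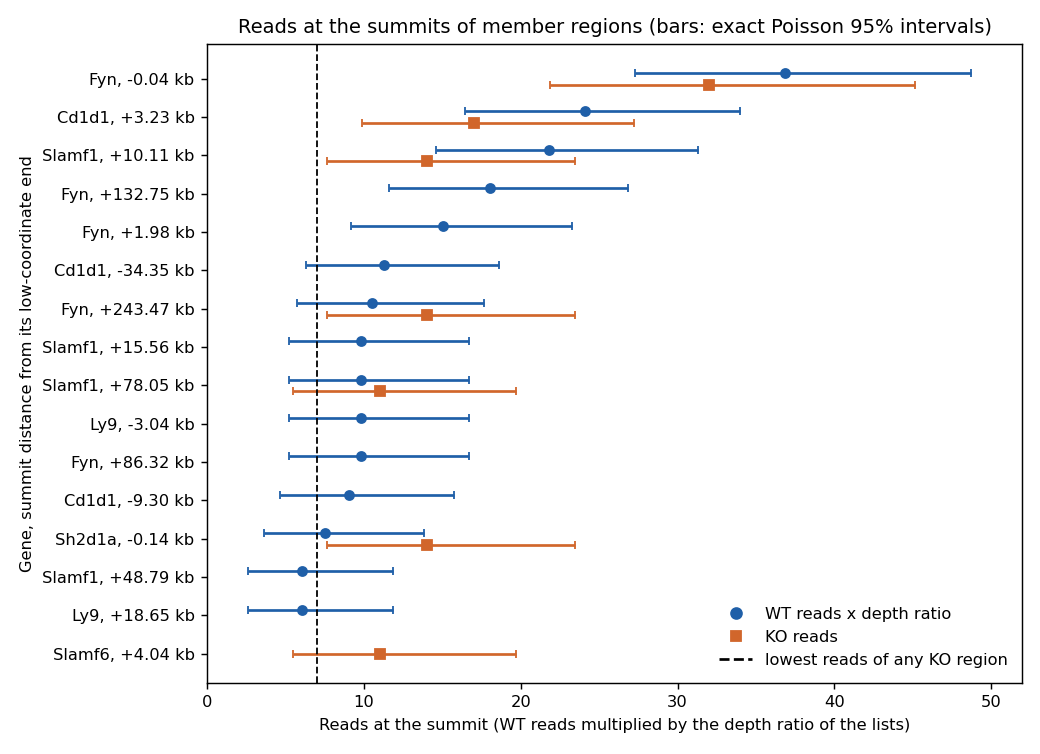
Reads at the summit of each member region, with WT reads multiplied by the depth ratio of 0.752 (circles) and KO reads (squares); bars are exact Poisson 95% intervals, and the dashed line marks the 7 reads of the weakest KO summits. In all 6 regions in both lists the intervals overlap, and the Fyn region at 132.75 kb is the WT-only site farthest to the right of the line.

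Ordered by their strongest WT region, the members ran Fyn (11.5), Slamf1 (10.0), Cd1d1 (9.88), Ly9 (5.90, by the end of Cd244a) and Sh2d1a (4.64), with Slamf6 and Zbtb16 without a region. In KO the order was Fyn (10.1), Sh2d1a (7.38), Cd1d1 (7.09), Slamf1 (6.94) and Slamf6 (5.13), with Ly9 and Zbtb16 without one. Each gene's Poisson interval of reads overlapped that of its neighbour in the order, in both lists, so the order of neighbours is not fixed by these counts. Over the 6 kept regions the median corrected ratio was 0.996, against 0.871 over all 6875. These medians are not matched for reads, and the ratio differed with reads. At 20 to 30 summed reads its median over all such regions was 1.04. Over regions with summed reads within 20% of each of the 6, the medians ran from 0.807 to 1.06. Under other settings the members' median ran from 0.706 to 1.10, and with flanks of 10 kb it was 0.787. Its place above 0.871 thus depended on the setting.

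**Figure D3:**
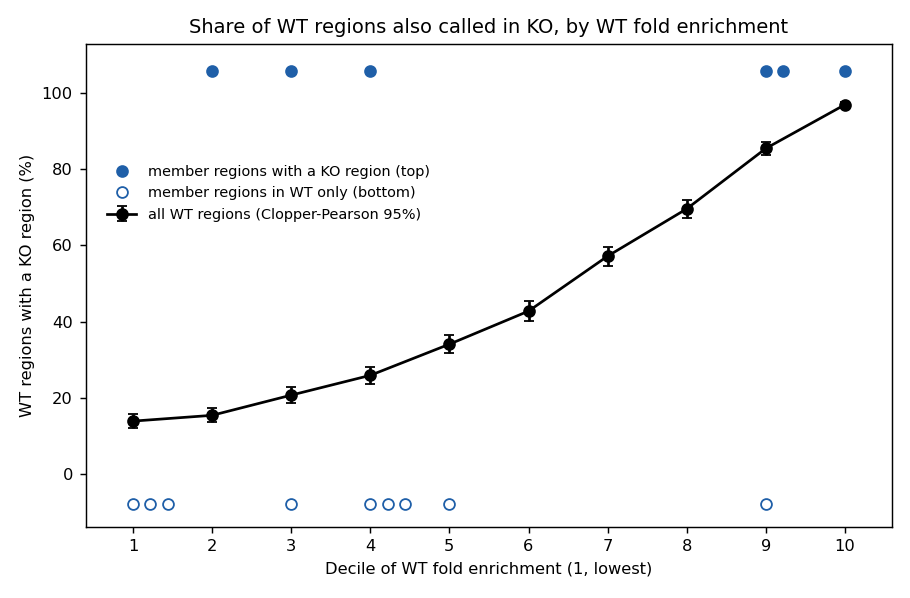
Share of all WT regions with a KO region (vertical axis, %, with Clopper-Pearson 95% intervals) by decile of WT fold enrichment, from 13.8% in the lowest to 97.0% in the highest. Filled points above mark the 6 kept member regions and open points below the 9 in WT only, of which 8 lie in the lower 5 deciles.

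At gene ends, meaning within 1000 bp of either annotated end, 3 of the 7 members were called in WT (Ly9, Sh2d1a and Fyn), where 34.6% of protein-coding genes had one. In KO 2 had one (Sh2d1a and Fyn), where 21.1% of genes did. Of the 3 members with a WT region there, 2 also had one in KO, against 59.4% of such genes. By fold enrichment at the gene end in both lists, among 4496 genes, those nearest to Fyn were Pdia4 (WT 11.4, KO 10.2), Peli1 (11.6 and 10.2) and Cript (11.3 and 10.0). Nearest to Sh2d1a were Eif3k and Map4k1 with the same values (4.57 and 7.38) and Fam120a (4.80 and 7.66). The likeness is a Euclidean distance of log2 folds over only 2 lists, at most 0.02 for Fyn and 0.07 for Sh2d1a.

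A wider list of 53 genes, taken by name for a role in iNKT selection or as family relatives, set the members in their pathway. At their gene ends 26 of these held a WT region, and 16 of the 26 a KO region as well (61.5%, 40.6 to 79.8), close to the 59.4% of all such genes. Of the 10 CD1d presentation genes all 10 had a gene-end region in WT, where 34.6% of protein-coding genes did. Cd1d2, a pseudogene by RefSeq, lies outside that base, and its region is the WT-only one given above near Cd1d1. A KO region was present at 7 of the 10 (70.0%, 34.8 to 93.3), an interval that holds 59.4%. The highest folds were at Npc1 (WT 12.0, KO 7.82) and Npc2 (9.72 and 9.02), which move cholesterol and lipids out of lysosomes, Mttp (10.4 and 7.61), a lipid transfer protein, and Gla (10.2 and 9.91), a lysosomal galactosidase. In WT only were Psap (4.65), the precursor of the saposins that load lipids, Ap3b1 (5.90), an adaptor of lysosomal sorting, and Cd1d2. The SLAM genes and SAP-like adaptors outside the members had 1 of 8 in WT, Cd244a (5.90), and 0 of 8 in KO.

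Among kinases and the NF-kB path, 7 of 12 genes had a WT region, where 34.6% of all genes did. Of these 7, 5 had a KO region (71.4%, 29.0 to 96.3), an interval that holds the 59.4% of all genes. Bcl10 (14.6 and 9.77) and Malt1 (9.27 and 7.88), which relay PKC-theta signals to NF-kB, and the Tec-family kinase gene Txk (9.93 and 9.84) were in both lists. Prkcq, which encodes PKC-theta, and Lck were among the 5 genes with no region at an end in either list. With 50 kb on each side, Prkcq and Lck each had 5 WT regions, of which 1 was kept. Over all WT regions 46.2% were kept, a share not matched for reads, and both genes were named after the data were seen.

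Nuclear factors of the iNKT lineage had a WT region at 8 of 23 genes, near the 34.6% of all genes. A KO region was present at 4 of the 8 (50.0%, 15.7 to 84.3), an interval that holds the 59.4% of all genes. In both lists were Id2 (10.0 and 9.88) and Tcf3 (7.25 and 4.80), an E protein inhibitor and an E protein, Ezh2 (9.31 and 7.14) and Egr1 (6.69 and 5.26), which T cell receptor signals induce. In WT only were Bcl11b (6.69), Elf4 (6.32), Satb1 (5.56) and Hdac3 (4.27), and in KO only Id3 (4.93, 14 reads). Of the 4624 protein-coding genes with a KO gene-end region, 128 had none in WT. Tcf12, which encodes the E protein HEB, resembled Zbtb16 in having no region of either list within 50 kb.

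**Figure D4:**
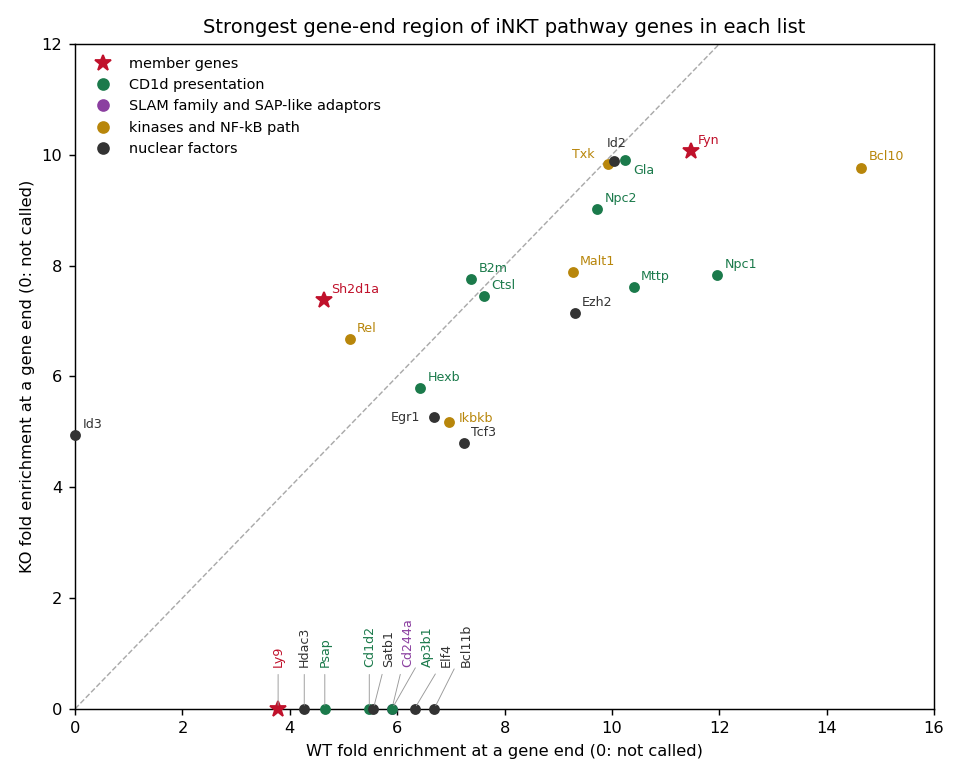
Fold enrichment of the strongest gene-end region in WT (horizontal axis) and KO (vertical axis) for members (stars) and the genes of the wider list reported here (circles, coloured by role); 0 means that no region was called and the dashed line marks equal fold. Sh2d1a (4.64 and 7.38) lies above the line and Fyn (11.5 and 10.1) below it, and Ly9 (3.78) lies on the WT axis.

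The targeted gene itself, Chaf1b, had a gene-end region of 14 reads (fold 5.60) in WT and 13 reads (fold 5.74) in KO. Where its loxP sites lie is not known here, so this does not check the deletion. The labelled cell type was checked on gene ends. Of 12 DP thymocyte genes 7 had a WT region, against 34.6% of all genes. A KO region was present at 1 of these 7, Cd8b1 (14.3%, exact Clopper-Pearson 95% interval 0.361 to 57.9), where 59.4% of all genes with a WT gene-end region had one. The interval covers counting error only and takes the genes as independent, though Rag1 and Rag2, and Cd3d and Cd3g, are neighbours. The interval ends below 59.4%. The genes were picked by name and the 59.4% is not matched for reads, so the 2 shares are a description and not a test. The same holds for the shares of the wider list and their intervals. In WT only were Rag1 (fold 6.57, 25 reads), Rag2 (7.19, 22 reads), Ptcra (4.64, 10 reads), Cd3d (4.78, 12 reads), Cd3g (8.10, 22 reads) and Themis (7.45, 20 reads). At equal reads the share of WT regions kept ran from 8.06% for the 10 reads of Ptcra to 75.8% for the 25 of Rag1. The part of these marker genes in the members' values was not tested. Cd4, Cd8a, Cd3e and Dntt had none at an end in either list, but with 50 kb on each side they had 7, 2, 3 and 3 WT regions. Of 10 genes of mature iNKT and other innate-like T cells 1 had a region, in both lists (Gzma, WT 8.82, KO 7.01), and of 6 B cell genes 1 had a WT region. Myeloid, erythroid and thymic epithelial genes had 0 in either list.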

How the data were processed

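ATAC-seq of sorted DP thymocytes gave 4 samples, and per the labels the authors made 1 file per group from both replicates. FastQC, Trim Galore, Bowtie2, GATK, Picard 4.1.5.0, deepTools 3.4.1, MACS2 2.1.4 and mm10 are named per the submitters' processing notes; cut-site shifts, duplicate removal and multimapping are not given in the sources used here. The deposited lists give a score (10 times the −log10 q, cut to a whole number), the authors' fold enrichment as a linear ratio, −log10 p and −log10 q (the latter at least 1.32 in WT and 1.31 in KO) and a summit offset.

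Reads and local background at each summit were solved from fold, taken as (reads + 1) / (background + 1), and the Poisson tail; reads were whole within 0.00208. The most frequent background, 1.37 in WT and 1.03 in KO, gave the depth ratio of 0.752. Gene spans came from a RefSeq GRCm38.p6 table (the assembly of mm10) without strand or exons, so exons and introns were not set apart. Ratio intervals come from the exact binomial share of KO reads. With 1 list per group, WT and KO were compared without a test.

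Members and lists were chosen with earlier results of these data known. The rule for named genes took all members with every region, up to 4 genes of highest WT fold per role, every gene in 1 list only, and the 3 genes nearest to each member with a gene-end region in both lists. A few genes of the lists count in the totals but are not reported here. Shares kept at equal reads, Prkcq, Lck, Tcf12, Chaf1b, the marker genes named and the settings without Fyn or Slamf1 were chosen after the data were seen. On simulated data the solver recovered 1986 of 1986 summits and the overlap 7560 of 7560 regions. Software was scipy 1.17.1, pandas 2.3.3 and numpy 2.4.6 in Python 3.11.15, with plots by matplotlib 3.10.9.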

Additional observations from a re-analysis of the deposited data

How the results depend on the processing

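Of 57 values under other settings, 44 stayed inside the counting interval of the reported value or, for counts of genes or regions, within 1.5 times of it. These intervals are wide. A kept share of 25.0% (1 of 4, where 37.9% of all were), with a −log10 q of at least 10, still fell inside that of the reported 40.0%. At 5 or more the share was 33.3% (4 of 12, where 46.1% of all were). With a −log10 q of at least 5, and also of at least 10, 1 member (Fyn) had a gene-end region in WT and 1 in both lists. At 10 or more, 0 members' KO regions lacked a WT region, and of the wider list 16 genes had a WT gene-end region and 10 had one in both lists. With the WT list limited to as many regions as the KO list by fold, 75.0% of the members' WT regions were kept (3 of 4, where 70.3% of all were), 4 KO regions had no counterpart, 1 member had a WT gene-end region and 1 one in both lists, 16 genes of the wider list had a WT region, and the median corrected ratio was 0.706. Other overlap rules, windows or flanks, another depth ratio and leaving out Fyn or Slamf1 moved none of the results by more than the counting interval or 1.5 times. No paired analysis was possible because each deposited list pools both replicates of its group; leaving out a replicate was not run for the same reason. Depth is low at the members' sites: all but 5 WT summits held 15 reads or fewer.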
